A study of Homo sapiens with 12 samples.

Results

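Circular RNAs read both in AC16 cells and in the exosomes released by them numbered 418 of the 5700 circular RNAs (circRNAs) listed across the series. They were selected on junction reads alone: a circRNA belonged to the set if it had at least 1 library with reads among the 6 of cells and at least 1 among the 6 of exosomes. AC16 is an established human cell line with ventricular cardiomyocyte ancestry, and exosomes are small vesicles that cells secrete. The 12 libraries fell into 4 groups of 3: each compartment had a Con group and an Ang group. What these abbreviations stand for is not given in the labels, nor is any agent, dose or time; the series text names hypertrophic cardiomyocytes and a search for small RNAs regulated in their exosomes. Separate cultures are not named for the libraries within a group, so the p-values reflect how far these libraries vary, possibly for technical reasons alone. Cell RNA and exosome RNA were extracted and made into libraries with different kits, a VAHTS Universal RNA-seq kit for cells and a SMARTer Stranded Total RNA-seq kit for exosomes, so compartment and kit cannot be told apart in any value below.

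A circRNA forms when the end of an exon is spliced back to the start of the same or an earlier exon, which leaves a closed ring without free ends. Exonucleases that degrade linear RNA from its ends do not act on the ring, so circRNAs are long-lived in cells, and they have been found in many secreted vesicles. The ring shares all of its exon sequence with the linear mRNA of its host gene, and only the backsplice junction, where the last exon runs into the first, tells it apart. The deposited tables count reads over that junction.

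The junctions that carried the main results are given here as the RNA's DNA letters, 5′ to 3′, from the GENCODE 29 transcripts on GRCh38. Lower case marks the last 20 bases of the last circular exon and capitals mark the first 20 bases of the first circular exon, so the change of case is the backsplice. The 4 MAN1A2 rings share their first exon and hence the capitals, and differ in the exon that closes the ring.
CDYL exon 4: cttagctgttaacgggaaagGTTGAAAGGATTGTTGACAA
CIZ1 exons 4 to 12: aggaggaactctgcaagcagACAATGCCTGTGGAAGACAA
DYNC2I1 exons 2 to 4: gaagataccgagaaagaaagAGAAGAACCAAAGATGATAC
POLR3G exons 4 to 7: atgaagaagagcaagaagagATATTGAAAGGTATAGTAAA
MAN1A2 exons 2 to 3: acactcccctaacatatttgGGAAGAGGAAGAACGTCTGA
MAN1A2 exons 2 to 4: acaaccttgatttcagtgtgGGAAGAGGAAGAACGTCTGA
MAN1A2 exons 2 to 5: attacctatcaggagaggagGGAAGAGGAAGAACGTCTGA
MAN1A2 exons 2 to 6: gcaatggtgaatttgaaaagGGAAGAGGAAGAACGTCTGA
PLOD2 exons 2 to 3: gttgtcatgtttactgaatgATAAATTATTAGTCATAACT
SH3PXD2A exons 8 to 10: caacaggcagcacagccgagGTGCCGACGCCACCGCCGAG
GSE1 exon 2: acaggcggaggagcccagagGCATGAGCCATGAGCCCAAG
The CDYL ring is exon 4 on the plus strand (chr6:4891713-4892379, 667 bases), the CIZ1 ring exons 4 to 12 on the minus strand (chr9:128169052-128180799, 1692 spliced bases) and the DYNC2I1 ring exons 2 to 4 on the plus strand (chr7:158869855-158876691, 558 spliced bases). POLR3G gave exons 4 to 7 on the plus strand (chr5:90495677-90506674, 338 spliced bases). MAN1A2, on the plus strand of chromosome 1, started every ring at 117402186 and ended them at 117405645, 117414831, 117420649 and 117442325, for spliced lengths of 353, 472, 553 and 648 bases. PLOD2 gave exons 2 to 3 on the minus strand (chr3:146121112-146124229, 229 spliced bases), SH3PXD2A exons 8 to 10 on the minus strand (chr10:103622470-103661114, 330 spliced bases) and GSE1 exon 2 on the plus strand (chr16:85633914-85634132, 219 bases). Every base shown is coding sequence. Spliced lengths assume that all annotated exons between the ends were kept, which junction reads cannot show.

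Depth differed widely between the compartments. Cell libraries held 9202471 to 11212674 reads assigned to genes and exosome libraries 535442 to 745311. The smallest count listed for any circRNA was 2 reads, worth 0.178 to 0.217 RPM in a cell library and 2.68 to 3.74 in an exosome library, where RPM is the number of junction reads, or of a gene's reads, per 1000000 gene reads of the same library. Replicate libraries of a group differed by more than counting noise, so none was counted as a duplicate. Of the 10 cardiomyocyte markers checked, GATA4 reached 27.6 ± 2.71 RPM in cells (SD, n = 6), TNNT2, TNNI3, RYR2, NKX2-5 and ACTC1 lay between 0.128 and 1.70, ACTN2 at 2.69, and MYH6, MYL2 and MYL7 were not listed. Among the 15 markers of blood, vessel, epithelial or serum sources, CD68 had 22.8 ± 21.6 RPM in cells and 64.3 ± 60.6 in exosomes. CD68 had 709 reads in cell Ang replicate 3 against 110 to 167 in the other cell libraries, and 2 to 92 in exosome libraries. The other markers that were listed stayed at or under 3.41 RPM in both compartments, and 6 were not listed.

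The set was a small part of the circRNAs of cells and a large part of those of exosomes. It held 8.07% of the 5179 circRNAs with reads in cells and 44.5% of the 939 with reads in exosomes; 4761 circRNAs were read in cells alone and 521 in exosomes alone. Its junction reads made up 37.1% ± 0.563 of all junction reads of a cell library and 59.8% ± 4.60 of those of an exosome library (SD, n = 6 each). These were 267 ± 9.95 RPM in cells and 1043 ± 79.1 in exosomes. In exosomes the Con libraries had 1058 ± 87.5 and the Ang libraries 1029 ± 85.9 (SD, n = 3 each), and their ranges overlapped. Between 234 and 265 of the 418 had reads in any one cell library and between 78 and 119 in any one exosome library. Exosome Con libraries showed 106 to 119 of them and exosome Ang libraries 78 to 93, without overlap. Counts of all circRNAs did not overlap either, at 196 to 226 in exosome Con and 161 to 176 in exosome Ang. As a percentage of the circRNAs read in a library, the set overlapped, at 52.7 to 58.4 in Con and 47.3 to 52.8 in Ang. The Con libraries were also deeper, with at least 717263 gene reads against at most 587783. The part of depth in these Con and Ang differences was not tested.

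Recurrence in cells and presence in exosomes went together. Of the 3812 circRNAs read in 1 cell library, 104 (2.73%) were also read in exosomes, against 58 of 613 (9.46%) for 2 cell libraries, 52 of 284 (18.3%) for 3, 37 of 170 (21.8%) for 4, 56 of 120 (46.7%) for 5 and 111 of 180 (61.7%) for all 6. Read from the exosome side, 319 of the 834 circRNAs found in 1 exosome library were also in cells (38.2%), and 61 of 66, 18 of 19, 8 of 8, 6 of 6 and 6 of 6 of those found in 2, 3, 4, 5 and 6 exosome libraries. Abundance showed the same gradient: 18 of the 20 highest cell circRNAs belonged to the set, 44 of the highest 50, 71 of the highest 100 and 122 of the highest 200. Since the reads chose the set, these are descriptions and no test was made.

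**Figure D1:**
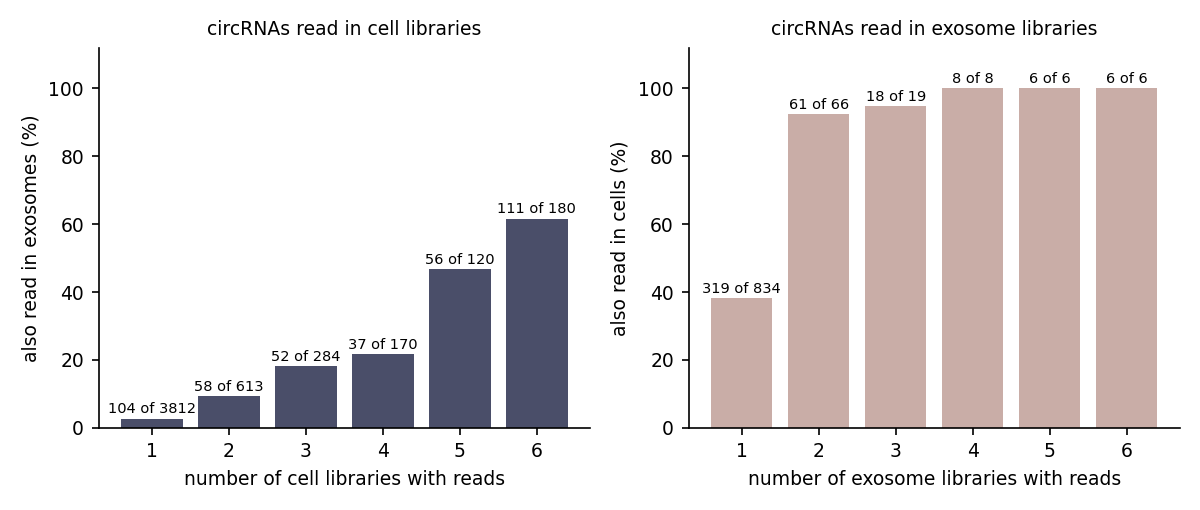
Percentage of circRNAs also read in the other compartment (y axis) by the number of libraries they were read in (x axis), from the cell side on the left and the exosome side on the right; bars are labelled with counts. The left bars climb from 2.73% at 1 cell library to 61.7% at 6, and the right bars from 38.2% at 1 exosome library to 100% at 4 to 6.

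Most of the set rested on little exosome evidence. In exosomes 319 of the 418 (76.3%) had reads in a single library, with 2 to 20 reads there and a median of 5; 99 had reads in 2 or more exosome libraries, 38 in 3 or more and 5 in all 12 libraries of the study. At the edge of the rule, 102 circRNAs had reads in 1 cell and 1 exosome library, and 6 of the 418 had just 2 reads in each compartment; the rings at MCM10 (chr10:13195041-13198807), a gene for a DNA replication factor, and MYCBP2 (chr13:77205256-77243951), a ubiquitin ligase gene, are of that kind. Just outside the rule stood a ring of exons 2 to 5 of DST, a gene for a cytoskeletal linker (chr6:56699653-56735289), with 40, 51 and 61 reads in cell Con, 55, 68 and 47 in cell Ang and 0 in every exosome library. A ring from GUSBP1, a pseudogene (chr5:21491321-21497196), had 122 reads over 6 cell libraries and likewise 0 in exosomes.

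In structure most of the set were exonic circRNAs. For 375 of the 418 (89.7%), both ends lay exactly at exon ends of 1 annotated transcript, against 52.4% of the circRNAs read in cells alone and 58.3% of those read in exosomes alone. Among circRNAs read in 3 or more cell libraries, the shares were 93.4% for the set and 73.1% for those without exosome reads. Within the exon-matched rings the median spliced length was 468 bases and the median number of exons 3, against 572 bases and 4 exons for rings of cells alone. Rings of 1 to 5 exons made up 82.7% of the exon-matched rings of the set and 69.0% of the exon-matched cell-only rings. In the transcript used, which was picked where possible to have exons on both sides of the ring, none of the 375 contained the first or last exon, 126 (33.6%) started at exon 2, 28 (7.47%) were a single exon, 273 held coding sequence alone and 77 held 5′ UTR and coding sequence. Introns next to the rings had a median of 11763 bases upstream and 10867 downstream, against 8143 and 7643 for all cell-only rings and 12273 and 12545 for cell-only rings in 3 or more libraries. Of the 99 rings in 2 or more exosome libraries, 92 were exon-matched, with a median spliced length of 437.5 bases, and 41.3% of these started at exon 2. Of the remaining members, 25 had 1 end at an exon end, 10 joined exon ends of different transcripts and 8 had neither end at one, among them 2 of the 3 rings from the long noncoding RNA MALAT1.

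The rings read in all 12 libraries came from CDYL, MAN1A2, MTCL1 and CIZ1. CDYL, a chromatin co-repressor gene, had 98, 123 and 143 junction reads in cell Con and 132, 130 and 172 in cell Ang, and 32, 12 and 17 in exosome Con and 35, 28 and 7 in exosome Ang. In RPM this was 13.2 ± 1.94 in cells and 34.4 ± 19.8 in exosomes (SD, n = 6), the highest exosome mean of the set. The lowest exosome library, with 7 reads, still stood near the cell level once divided by its depth.

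MAN1A2 encodes a Golgi mannosidase that trims N-linked sugars, and its 4 rings nest within each other. The ring of exons 2 to 5 had 113, 133 and 169 reads in cell Con, 127, 145 and 127 in cell Ang, 14, 17 and 11 in exosome Con and 8, 33 and 7 in exosome Ang. That gave 13.5 ± 1.26 RPM in cells, the highest cell mean of the set, and 23.5 ± 16.4 in exosomes. Exons 2 to 4 gave 45 to 69 reads in every cell library and 7 to 24 in every exosome library, or 5.57 ± 0.641 and 18.0 ± 8.56 RPM. Exons 2 to 6 reached 5.12 ± 1.52 in cells and 13.2 ± 9.92 in exosomes, and exons 2 to 3 reached 2.91 ± 0.899 and 14.9 ± 15.1. In cells the ring of exons 2 to 5 exceeded the other MAN1A2 rings by more than the spread between libraries, whereas in exosomes the libraries of all 4 rings overlapped.

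MTCL1, a gene for a microtubule crosslinking factor, gave 2 rings that share their last base. The ring of exons 3 to 4 (chr18:8718424-8720496, 384 spliced bases) had 22, 36 and 55 reads in cell Con and 38, 46 and 40 in cell Ang, then 40, 8 and 21 in exosome Con and 15, 17 and 6 in exosome Ang. Its means were 3.89 ± 0.891 RPM in cells and 26.8 ± 15.7 in exosomes. CIZ1, a gene for a nuclear matrix protein that acts in DNA replication, had 20, 27 and 38 reads in cell Con and 12, 36 and 26 in cell Ang. Exosome Con libraries gave 18, 21 and 16 reads and exosome Ang libraries 42, 6 and 3, so the Ang libraries lay both above and below all 3 Con libraries; the means were 2.60 ± 0.834 RPM in cells and 27.7 ± 25.1 in exosomes.

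DYNC2I1 and POLR3G were sparse in cells and high in exosomes. DYNC2I1, which encodes an intermediate chain of the ciliary dynein motor, had 15, 0 and 15 reads in cell Con, 5, 17 and 13 in cell Ang, 13, 20 and 16 in exosome Con and 6, 13 and 23 in exosome Ang. It was thus in all 6 exosome libraries and without reads in 1 cell library, at 1.06 ± 0.656 RPM in cells and 23.8 ± 10.9 in exosomes. POLR3G, an RNA polymerase III subunit gene, had 12, 9 and 0 reads in cell Con and 4, 6 and 11 in cell Ang, beside 21, 0 and 6 in exosome Con and 6, 13 and 13 in exosome Ang. Its ratio of exosome to cell mean was 22.0 and that of DYNC2I1 22.4, against 2.61 for CDYL and 1.74 for the MAN1A2 ring of exons 2 to 5, which falls below 1 as a share of all junction reads.

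**Figure D2:**
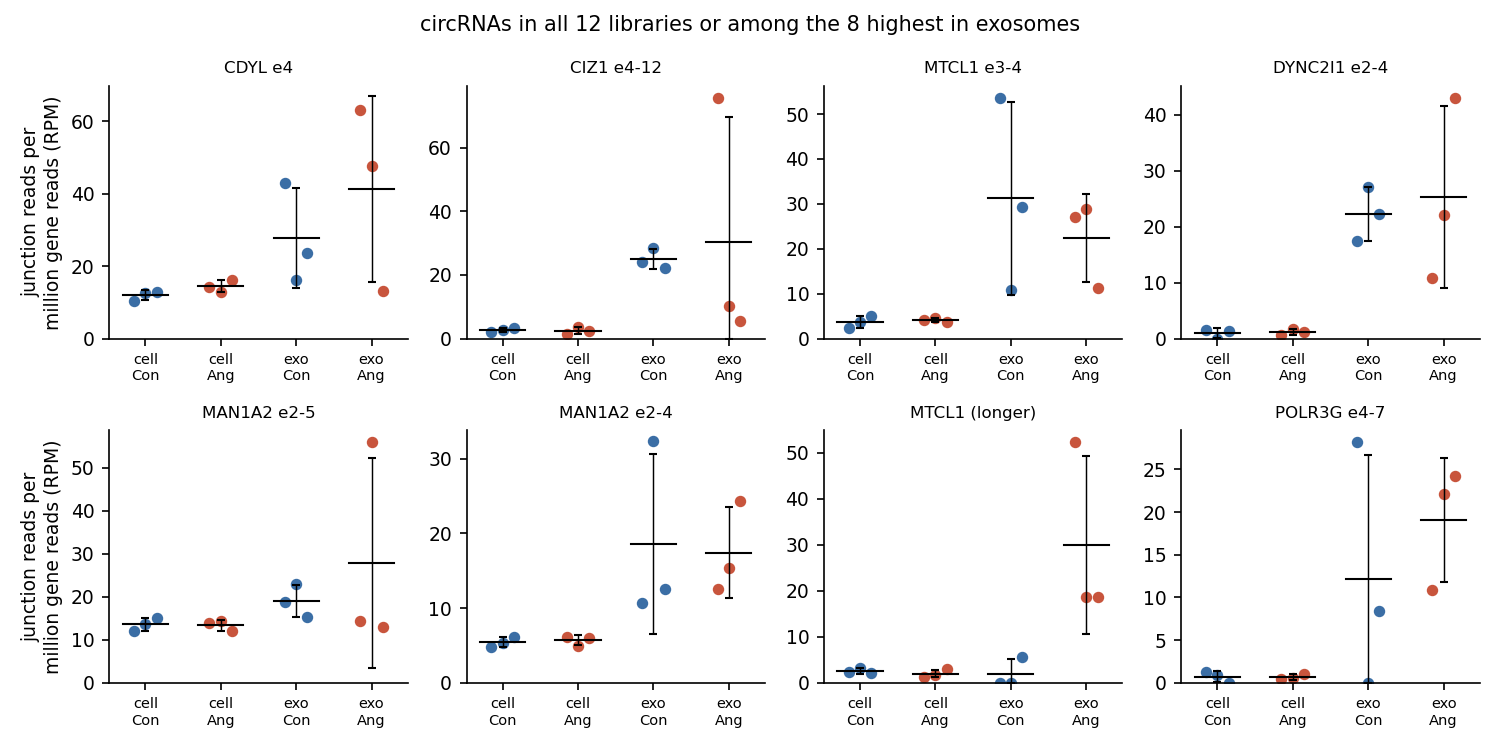
Junction reads in RPM (y axis) in each library of the 4 groups for the rings read in all 12 libraries or among the 8 highest in exosomes; points are libraries, the line is the mean of 3 and the bar is 1 SD, drawn no lower than 0. Cell libraries sit close together, for example 13.2 ± 1.94 for CDYL over 6, and exosome libraries spread widely, 34.4 ± 19.8 for the same ring.

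Other rings were abundant in cells and thin in exosomes. DEK, a chromatin architectural protein gene, had 36, 57 and 54 reads in cell Con and 78, 45 and 89 in cell Ang for a ring of exons 3 to 9, and 9 reads in 1 exosome Con library with 0 in the other 5. HUWE1, a gene for a large ubiquitin ligase, had 309 reads over the 6 cell libraries and 18 over 2 exosome libraries, a ratio of exosome to cell mean of 0.866. HIPK3, a kinase gene whose exon 2 ring is among the best studied, had 24, 17 and 28 reads in cell Con, 20, 19 and 28 in cell Ang and 8 in 1 exosome Con library. In RNF168, a ubiquitin ligase gene of DNA repair, 116 cell reads stood beside 2 exosome reads, and its ratio of 0.233 was the lowest of the set. ASAP1, a gene for an Arf GTPase-activating protein, lay between these and the recurrent rings: exons 9 to 14 had 68, 41 and 91 reads in cell Con, 66, 45 and 52 in cell Ang, 13, 10 and 12 in exosome Con and 0, 4 and 8 in exosome Ang. A junction listed between HLA-C and HLA-B (chr6:31271073-31355592) had 144 and 176 reads in 1 library each of cell Con and cell Ang, 20 in 1 exosome Ang library and 0 in the other 9. It spans near-identical paralogous genes, so its identity is uncertain.

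Over the whole set, 394 of 418 rings had a higher mean RPM in exosomes than in cells, with a median ratio of 6.29. Measured instead as a share of all junction reads of a library, 320 were higher and the median ratio was 2.53. On that scale 74 rings turned from higher to lower in exosomes, among them the MAN1A2 ring of exons 2 to 5 (ratio 0.703), the ASAP1 ring of exons 9 to 14 (0.811) and the SMARCA5 ring (0.644). The lowest level that can be listed is more than 10 times higher in exosomes, as the worth of 2 reads above shows, and the rule admits no ring with 0 exosome reads, so these ratios carry no test. Cell and exosome means had a Spearman rho of 0.39 over all 418 rings and 0.44 over the 97 with 2 or more libraries in each compartment, as a description of rings measured in the same libraries.

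**Figure D3:**
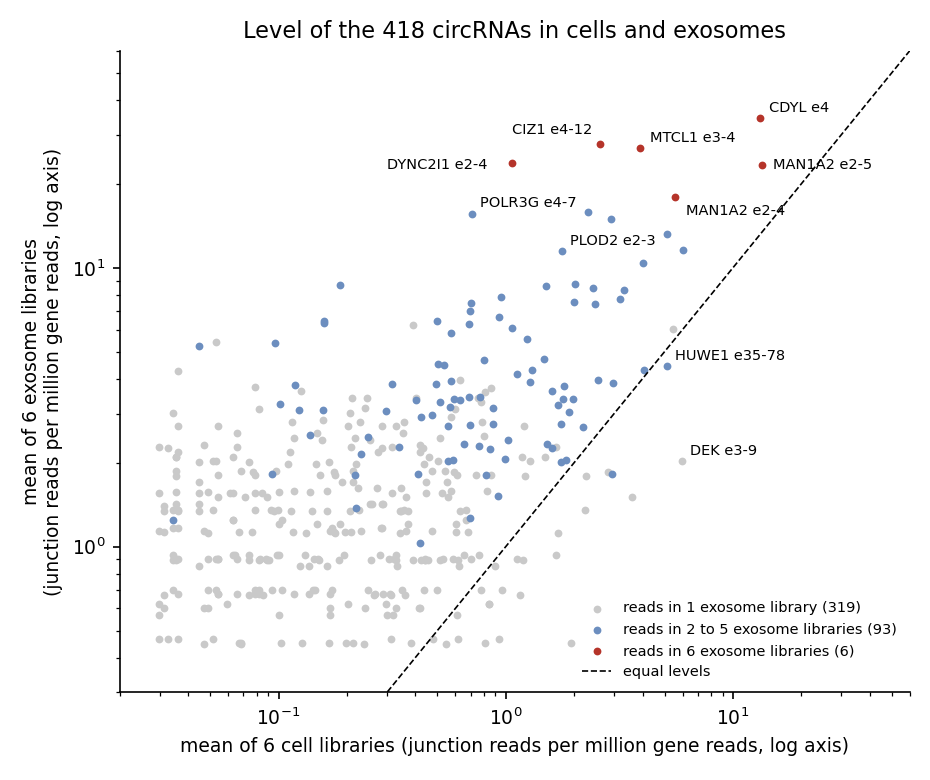
Mean junction reads in RPM of the 418 circRNAs in 6 cell libraries (x axis, log) and 6 exosome libraries (y axis, log), coloured by the number of exosome libraries with reads; the dashed line marks equal levels. Most of the 319 rings from 1 exosome library lie in horizontal bands set by counts of a few reads, and the rings in all 6 exosome libraries lie at 18.0 or more.

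By host, the 418 rings came from 343 genes, with 2 rings in no annotated gene; 287 hosts gave 1 ring, 44 gave 2 and 12 gave 3 or more. RBM39, a splicing factor gene, gave 6 rings. Its ring of exons 4 to 6 had 10 to 21 reads in every cell library and 5 and 16 in 2 exosome Con libraries, while the ring of exons 4 to 11 had 3 reads in 1 cell library and 18 in 1 exosome Ang library. PTK2, the focal adhesion kinase gene, gave 4 rings, each in 1 exosome library with 2 to 9 reads. UBAP2, a gene for a ubiquitin-associated protein, and GIGYF2, a translational repressor gene, gave 3 each. Rings of 1 gene share exons and library, and their reads are not independent.

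Hosts long known for circRNAs were counted from a list chosen with earlier results of these data known. Of a list of 44 such genes, 28 gave 40 rings of the set, which is 9.57% of the set against 2.14% of cell-only and 1.15% of exosome-only circRNAs. Among circRNAs in all 6 cell libraries, such hosts gave 28 of 111 in the set (25.2%) and 6 of 69 cell-only ones (8.70%), with no test. Of the 40, 17 were in 2 or more exosome libraries and 23 in 1. SLC8A1, the cardiac sodium-calcium exchanger gene, gave its exon 2 ring of 1832 bases (chr2:40428473-40430304) with 29, 25 and 44 reads in cell Con, 0, 23 and 28 in cell Ang, 17, 12 and 0 in exosome Con and 0, 7 and 0 in exosome Ang. SMARCA5, a chromatin remodelling ATPase gene, had 158 reads in cells and 13 in exosomes, and XPO1, the nuclear export receptor gene, had 56 and 25. FBXW7, an F-box ubiquitin ligase subunit gene, had 100 and 8, ZNF609, a zinc finger regulator gene, 61 and 8, and CORO1C, an actin-binding protein gene, 101 and 3. XPO1 thus had fewer cell reads than CORO1C and more exosome reads.

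By function, 36 rings of the set came from 25 hosts on the list of chromatin and transcription regulators, 8.61% of the set against 2.96% of cell-only circRNAs. ZBTB46, a zinc finger repressor gene, had 199 reads in cells and 31 in 4 exosome libraries, SETD3, a histidine methyltransferase gene, 121 and 31 in 4, and ATRX, a chromatin remodeller gene, had one ring with 10 cell reads and 26 exosome reads in 4 libraries. Genes for kinases, phosphatases and GTPase regulators gave 23 rings (5.50% against 2.84%), with STK3, a Hippo pathway kinase, at 30 cell and 25 exosome reads. RNA-binding, splicing and translation genes gave 25 (5.98% against 2.58%), cytoskeletal and centrosome genes 16 (3.83% against 3.32%), membrane traffic genes 13 (3.11% against 1.60%) and ubiquitin and protein turnover genes 13 (3.11% against 2.46%). Among exosome-only circRNAs the shares of these lists ran from 1.73% (membrane traffic) to 3.65% (RNA-binding). Cell-only circRNAs were less often exon-matched (52.4% against 89.7%), and 573 of 4761 lay in no gene, against 2 of 418 in the set. The part of this in the shares was not tested, and the lists were not compared at equal recurrence. Hosts on these lists were chosen with earlier results of these data known, and the shares have no test. No ring of the set came from the 47 genes listed for circRNA formation, export and decay, which gave 0.630% of cell-only and 0.768% of exosome-only circRNAs.

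Host gene reads were listed apart from the junction reads and did not choose the set. A ring shares its exon sequence with the host mRNA, so reads from rings may be among the gene reads. Between exosomes and cells, 153 of 334 hosts tested passed an adjusted p of 0.05 in edgeR's quasi-likelihood test with Benjamini-Hochberg adjustment, where 37.1% of all 11811 genes tested did. Of these hosts 81 were higher in exosomes, where 17.6% of all genes were higher, and 72 were lower, where 19.5% of all genes were lower. The median log2 difference was -0.02 over the hosts and -0.15 over all genes. The hosts that passed were thus split between both directions. In bulk RNA, fewer cells or vesicles that carry a transcript and less of it in each cannot be told apart.

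For the recurrent rings, host and ring were compared within each gene. MTCL1 gene reads were 96, 94 and 96 in cell Con, 141, 145 and 130 in cell Ang, 195, 21 and 61 in exosome Con and 31, 88 and 109 in exosome Ang. On 11.7 ± 2.69 RPM in cells and 131 ± 90.5 in exosomes, the fitted log2 difference was 3.71 (SE 0.461, edgeR adjusted p = 6.72e-05, n = 6 each). SH3PXD2A, a podosome scaffold gene, rose by 3.45 (SE 0.964, edgeR adjusted p = 0.0160), and MAN1A2 by 0.77 (SE 0.255, edgeR adjusted p = 0.0310). CDYL gene reads differed by 0.22 (SE 0.361, edgeR adjusted p = 0.653) and CIZ1 gene reads by 0.28 (SE 0.140, edgeR adjusted p = 0.129), neither past the threshold.

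The listed gene reads of DYNC2I1 and GSE1 moved the other way from their rings. DYNC2I1 gene reads were 681 to 953 in each cell library, and in exosomes they were 0, 0 and 24 in Con and 28, 0 and 0 in Ang; its log2 difference was -2.38 (SE 0.821, edgeR adjusted p = 0.0403). In the 4 exosome libraries that list the gene at 0, the ring had 13, 20, 13 and 23 junction reads, so the listed 0 stood beside reads over the ring's own exons; how gene reads were assigned is not given in the sources used here. GSE1, a gene for a subunit of a histone deacetylase complex, fell by 2.55 (SE 0.393, edgeR adjusted p = 3.17e-04), while its exon 2 ring had 42 reads in cells and 32 in exosomes. Its listed gene reads over the exosome libraries were 25, fewer than those over its ring's junction, so the limit on gene reads applies to GSE1 too. XPO1 fell by 2.08 (SE 0.197, n = 6 each), while its ring had the counts given above.

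Set against host gene reads of the same library type, 369 of 403 rings with host values had a higher ratio in exosomes. Reads were summed over the libraries of a compartment, except where single libraries are named. The median was 0.231 junction reads per 100 host gene reads in cells and 1.60 in exosomes, with the limit on listed levels above applying here too. CDYL went from 14.2 to 33.6, CIZ1 from 0.842 to 8.39 and POLR3G from 2.22 to 32.2. DYNC2I1 went from 1.32 to 21.4 and 66.7 in the 2 exosome libraries that list gene reads, with no ratio in the other 4. MTCL1 went from 33.8 to 21.2 for its ring of exons 3 to 4 and SH3PXD2A from 5.37 to 3.61. Single libraries overlapped, with 22.9 to 57.3 in cells and 5.50 to 48.4 in exosomes for that MTCL1 ring. For SH3PXD2A they ran from 2.11 to 33.3 in cells and from 0.0 to 80.0 in exosomes. Reads of both host genes were higher in exosomes, as given above. These ratios depend on gene length and kit, and are read within a gene.

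**Figure D4:**
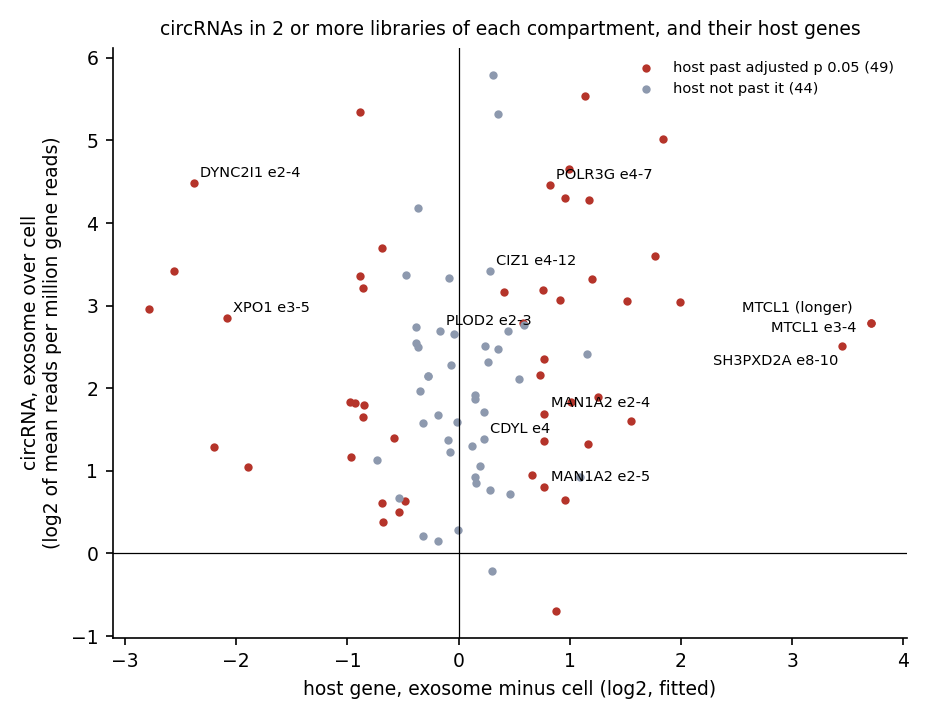
Exosome over cell ratio of the ring (y axis, log2 of mean RPM) against the fitted exosome minus cell difference of its host gene (x axis, log2) for 93 rings with reads in 2 or more libraries of each compartment; red points are hosts past an adjusted p of 0.05. Rings lie mostly above 0 on both sides of the host axis, with DYNC2I1 at -2.38 and MTCL1 at 3.71, and Spearman rho over these rings was 0.17 as a description.

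Proteins that make, bind or clear circRNAs were followed as a gene list in the same fit. Of 44 tested, 10 were higher in exosomes (17.6% of all genes were) and 17 lower (19.5% of all genes were). QKI, a splicing factor that promotes backsplicing, fell by 0.63 (SE 0.176, edgeR adjusted p = 0.0140), from 255 ± 10.1 to 144 ± 41.1 RPM. ADAR, the RNA-editing enzyme that limits circle formation, fell by 0.44 (SE 0.126, edgeR adjusted p = 0.0163). YTHDC1, a reader of methylated RNA, rose by 1.63 (SE 0.273, edgeR adjusted p = 5.76e-04), and RBM25, a splicing regulator, by 1.76 (SE 0.122, edgeR adjusted p = 3.90e-07). None of the list passed the threshold between Ang and Con, in cells (45 tested) or in exosomes (39 tested).

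Between Ang and Con in cells, no ring of the set changed past the threshold. Of 350 circRNAs tested, 180 of them in the set, 0 passed an adjusted p of 0.05 (0.0%) in edgeR's quasi-likelihood test, 8 had an unadjusted p under 0.05, 4 of them in the set, and DESeq2 called 0. The median log2 difference was 0.02 over the rings of the set tested and 0.02 over all tested. A ring of exons 8 to 11 of CSPP1, a centrosome and spindle protein gene, had 7, 6 and 6 reads in cell Con and 0, 0 and 0 in cell Ang. With the Ang group set to a floor of 3 reads it was 6.26-fold lower, with an edgeR adjusted p of 0.999. It passed the filter on low counts only through the Con libraries. Its host had a log2 difference of -0.05 (edgeR adjusted p = 0.914). Without cell Con replicate 2, 1 ring was called.

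The other smallest p-values belonged to ASXL1, a Polycomb-associated gene, with 15, 18 and 16 reads against 7, 2 and 13; PNN, a splicing and desmosome-associated gene, with 21, 6 and 20 against 7, 5 and 9; and DLG1, a scaffold gene of cell polarity, with 13, 15 and 5 against 4, 3 and 5. Of these 3, the Con and Ang reads of ASXL1 did not overlap. All had edgeR adjusted p-values of 0.999.

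In exosomes 1 ring passed. Of 27 circRNAs tested, 26 of them in the set, 1 was called (3.7%), the PLOD2 ring of exons 2 to 3. PLOD2, a gene for a lysyl hydroxylase that prepares collagen for crosslinking, had 13, 9 and 28 junction reads in exosome Con and 0, 0 and 0 in exosome Ang. In cells the Con libraries held 16, 13 and 15 reads of the same ring and the Ang libraries 17, 18 and 28, which were all higher. That cell difference did not pass, as the smallest edgeR adjusted p of any circRNA tested in cells was 0.999. With the Ang group set to a floor of 3 reads, the exosome level was 12.7-fold lower in Ang. That floor covers counting error only, so the fold is no lower bound across libraries. The edgeR adjusted p was 0.0436 (fitted log2 -6.91, SE 2.14, which depends on the prior count). The PLOD2 ring had reads enough to be tested only through the Con libraries. PLOD2 gene reads in exosomes were 95, 122 and 177 in Con and 101, 114 and 52 in Ang, a log2 difference of -0.18 (edgeR adjusted p = 0.999), so the host did not pass. The call was lost in each fit that left out 1 library, with adjusted p-values from 0.206 to 0.460, and with no filter on low counts, where it was 0.291; DESeq2 gave 0.00723.

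The next smallest p-values in exosomes belonged to 2 rings that did not pass the threshold. The longer MTCL1 ring (chr18:8714139-8720496), whose start is at no annotated exon start, had 0, 0 and 4 reads in exosome Con and 29, 11 and 10 in exosome Ang, and 22, 32 and 24 against 12, 18 and 31 in cells. Its fitted log2 difference in exosomes was 4.07 (SE 1.52, edgeR adjusted p = 0.117), and DESeq2 called it (adjusted p = 0.00787), as edgeR did without exosome Con replicate 3. With 1 library left out the log2 difference ran from 2.92 (without exosome Ang replicate 1, edgeR adjusted p = 0.988) to 7.28 (without exosome Con replicate 3, edgeR adjusted p = 0.0408). The ring could be tested only through the Ang libraries. The shorter MTCL1 ring, with 40, 8 and 21 against 15, 17 and 6, overlapped between the labels. SH3PXD2A had 8, 24 and 6 reads in exosome Con and 0, 0 and 0 in exosome Ang, 9.65-fold lower by the same floor (edgeR adjusted p = 0.236). The SH3PXD2A ring likewise could be tested only through the Con libraries, and had 13, 10 and 16 against 25, 16 and 10 in cells. GSE1 had 18, 0 and 10 against 0, 4 and 0 (edgeR adjusted p = 0.973). The median log2 difference was -0.10 over the 26 rings and -0.11 over all 27, and 12 of the 26 were positive.

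**Figure D5:**
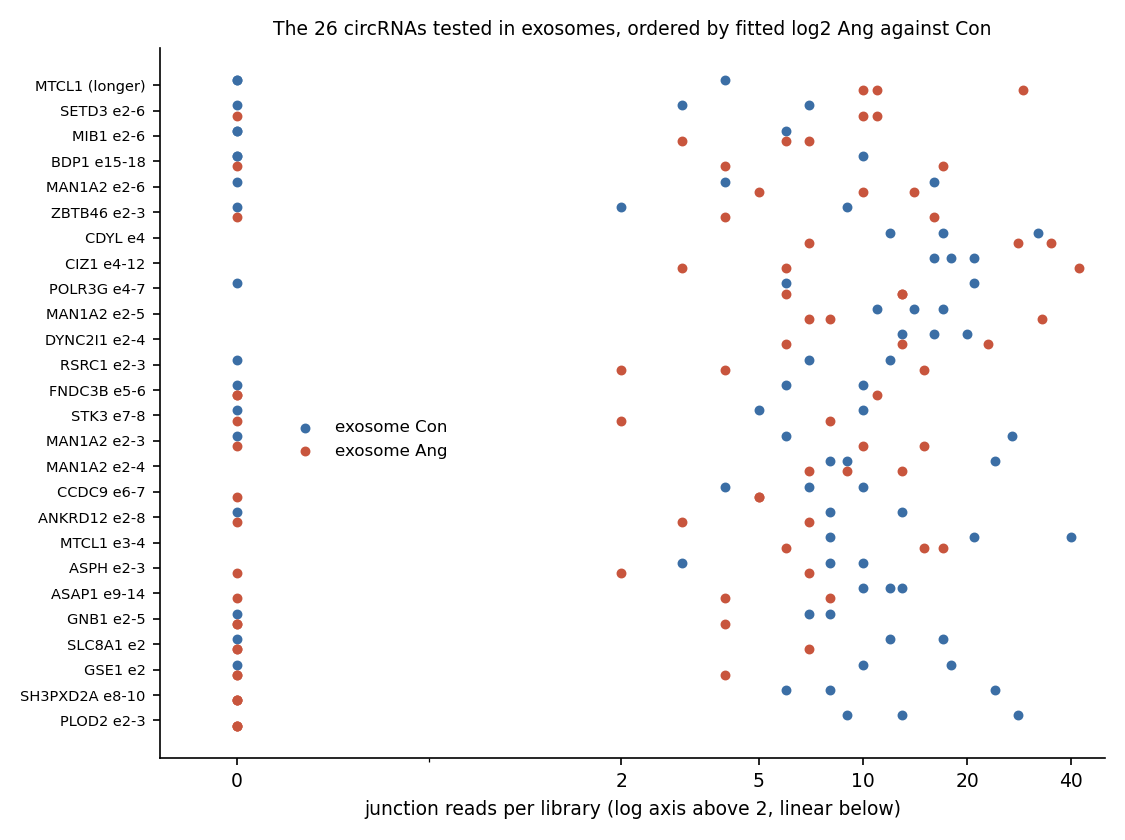
Junction reads per exosome library (x axis, log above 2 and linear below) for the 26 rings of the set that were tested in exosomes, Con in blue and Ang in red, ordered by the fitted log2 difference. PLOD2 and SH3PXD2A at the bottom have all 3 Ang libraries at 0, the longer MTCL1 ring at the top has Ang at 10 to 29 and Con at 0 to 4, and most rings between overlap.

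Whether the Ang against Con difference itself differed between exosomes and cells was tested as an interaction. Of 192 circRNAs tested, 147 of them in the set, 0 passed (0.0%); 31 had an unadjusted p under 0.05, all in the set, and DESeq2 called 3. The circRNAs tested outside the set had reads in 1 compartment alone. PLOD2 had the smallest p (edgeR adjusted p = 0.141), then SH3PXD2A (0.178), UBAP2 and DNAJC2 (0.287 each). The UBAP2 ring of exons 5 to 10 (chr9:33960826-33989126) had 8, 4 and 3 reads in exosome Con and 0 in each exosome Ang library, 3.81-fold lower by the same floor, against 16 to 24 in every cell library. DNAJC2, a chaperone gene, had 0, 2 and 0 reads in cell Con and 8, 3 and 7 in cell Ang, and 6, 0 and 4 in exosome Con and 0 in exosome Ang. The DNAJC2 ring passed the filter on low counts only through cell Ang and exosome Con libraries, the groups where it was high. Of the whole set, 209 rings were read in exosomes under Con alone, 145 under Ang alone and 64 under both, beside 64, 65 and 289 in cells. The deeper Con exosome libraries apply to this count too. Over all circRNAs, each exosome Con library also held more, 196 to 226 against 161 to 176 in exosome Ang. The split by label was not counted over all circRNAs, so it is not read as particular to the set.

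The host genes did not separate Con from Ang. In cells 0 of 13331 genes tested were called (0.0%), among them 334 hosts. An unadjusted edgeR p under 0.05 was found for 22 of the 334 hosts and for 816 of all 13331 genes. DESeq2 called 59 genes and 2 hosts. In exosomes 1 of 8327 genes was called (0.012%) and 0 of 314 hosts. There an unadjusted edgeR p under 0.05 was found for 13 of the 314 hosts and for 316 of all 8327 genes. DESeq2 called 16 genes and 0 hosts. The median log2 difference of the hosts was 0.00 in cells and 0.03 in exosomes. DYNC2I1 and GSE1 had too few exosome reads to enter that test.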

How the data were processed

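RNA was measured in 12 libraries. For each, the authors deposited whole-number read counts of 2 kinds, counts per gene and counts of backsplice junction reads per circRNA; the submitters' processing notes name GRCh38, HISAT2 and StringTie with no role or version, and the circRNA caller is not given in the sources used here. Groups came from the sample titles. The circRNAs of the set and all gene lists were chosen with earlier results of these data known.

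A circRNA was matched across libraries by chromosome, both ends and strand. Levels are reads per 1000000 gene reads of the library (RPM). Ends were compared with GENCODE 29 exons, preferring transcripts with an exon on both sides of the ring. Ang against Con, and the interaction with compartment, were tested with edgeR 4.0.16 in R 4.3.3 (TMM over the features tested, robust quasi-likelihood F-test, two-sided, Benjamini-Hochberg over all features tested, threshold 0.05). Filters were a count of 4 and a total of 12 for circRNAs and 10 and 15 for genes. An SE is the fitted log2 difference divided by the square root of F. Exosome against cell levels of circRNAs were not tested, since they chose the set; host genes were, in the genes listed in both compartments. A group at 0 was given a floor of 3 reads, which covers counting error only. Libraries of a group differed by more than counting noise, so folds from this floor are not lower bounds.

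Named rings were those in all 12 libraries, the 8 highest by exosome and by cell mean, called rings or the 4 of smallest p in each test, those on well-known hosts, hosts with the most rings, and the edges of the rule; other rings named for a functional group were picked after their values were seen. Alternatives were DESeq2 1.42.0, other filters and library sizes, a replicate block, all libraries in 1 fit, other membership rules and leaving out each library. Same-numbered Con and Ang libraries did not deviate together, with correlations of gene residuals from -0.04 to -0.0075. For same-numbered cell and exosome libraries the correlations ran from -0.016 to 0.017, so numbers were not used as pairs. Scripts were tested on simulated counts. Figures were drawn with matplotlib 3.10.9.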

Additional observations from a re-analysis of the deposited data

How the results depend on the processing

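The set shrank to 97 circRNAs with 2 libraries required in each compartment and to 223 with 5 reads in each; it held 418 with strand ignored and 420 with ends matched within 5 bases. Leaving out 1 library gave 349 to 405 circRNAs, and 5 to 6 present in every remaining library. The median exosome over cell log2 ratio of the set was 2.65, and 1.34 as a share of junction reads, where 14 of the 57 named rings turned from higher to lower in exosomes. Between Ang and Con in exosomes, 1 ring was called, against 2 with DESeq2 and 0 with no filter, with the filter of 10 and 15, with all 12 libraries in the fit (PLOD2 adjusted p = 0.0659), and 0 to 1 with 1 library left out; of those only the fit without exosome Con replicate 3 called 1, the longer MTCL1 ring and not PLOD2. The replicate block, which treats equal numbers as pairs although the libraries share only a number, gave 0 calls in exosomes and in cells and 140 hosts between exosomes and cells, where 153 passed without it. In cells 0 were called, and 0 to 1 with 1 library left out. The interaction had 0 calls, 3 with DESeq2 and 0 with any library left out. Hosts called between Ang and Con in cells were 0, or 2 with DESeq2; in exosomes 0, and 0 to 1 with 1 library left out, the 1 being without exosome Ang replicate 3. Hosts called between exosomes and cells ranged from 136 to 162 with 1 library left out, with 181 under DESeq2. No ring named for its Ang against Con or interaction p changed direction in any alternative that gave it a value. This carries no support, as these rings were picked for small p from the same counts. For CSPP1, PLOD2, SH3PXD2A and UBAP2, with a whole group at 0, the direction could hardly change. The causes of the lost and gained calls were not tested. In exosomes 27 circRNAs could be tested, against 350 in cells; the part of depth in this was not tested.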
